A study of Mus musculus with 24 samples.

Results

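The epidermal growth factor receptor (EGFR) family and the hepatocyte growth factor receptor (MET) were followed through 9 named genes in mouse kidney after ureter obstruction and its reversal. They comprise the ligand genes Hbegf, Areg, Tgfa and Hgf and the receptor genes Egfr, Erbb2, Erbb3, Erbb4 and Met. Of these 9 genes, 8 had a row among the 14785 genes of the deposited expression table. Hgf, the gene of the MET ligand, had no row and is not analysed here.

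Bulk RNA sequencing after polyA selection was done on kidneys of male C57/BL6 mice with a labelled age of 8 weeks, in 6 groups of 4 animals, the 4 having been selected from a larger number per group. The groups were sham-operated mice (Sham), mice with 1 ureter tied off for 2 days (UUO2) or for 7 days (UUO7), and mice whose ureter was tied off for 7 days, then surgically reimplanted, and left to recover over 1 week (R1W), over 2 weeks (R2W) or over 4 weeks (R4W). No group carried a transgene or a drug, and the interval between sham surgery and tissue collection is not given in the sources used here, so recovery time and age at collection cannot be told apart. R4W replicate 2 is titled as a 4 week sample while its treatment label says 2 weeks, and it was placed by its title.

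EGFR and its relatives ERBB2, ERBB3 and ERBB4 are receptor tyrosine kinases that pair with one another when a ligand binds. ERBB2 has no known ligand of its own and ERBB3 has little kinase activity, so both work mainly in pairs. Most EGFR ligands are made as membrane proteins and are cut free by proteases such as ADAM17, whereas hepatocyte growth factor is secreted as an inactive precursor that serine proteases cleave before it activates MET. Both receptor systems are known for their roles in tubule repair and in fibrosis of the kidney.

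Values are FPKM, sequenced fragments normalised for transcript length and sequencing depth, a unit inferred from the table. FPKM is relative to the whole library, and the median log2 fold change of all genes against sham was 0.09 in UUO2 and 0.42 in UUO7, and 0.37, 0.32 and 0.30 after 1, 2 and 4 weeks of recovery. The main changes are therefore given as deposited and again after every library was rescaled by the median, over genes, of its ratio to the geometric mean of the libraries, which brought those medians to between -0.01 and 0.01. Fold changes are log2 differences of FPKM + 1, which understate the change of low genes. A gene is described as risen or fallen where the limma test called it, at a Benjamini-Hochberg adjusted p under 0.05 over all 14785 genes. In bulk tissue, fewer cells of a type and less RNA per cell cannot be told apart.

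Whole-read steps in low values implied 24440000 to 36380000 fragments in 18 of the 24 libraries. No steps were found in the 4 UUO2 libraries or in R1W replicates 2 and 3, whose depth is unknown. The UUO2 libraries also held mt-Rnr1, a mitochondrial ribosomal RNA, at 2343 to 2832 FPKM against 342 to 709 FPKM in the other 20 libraries. Within UUO2, replicate 2 stood apart for many of the genes below. The labelled tissue carried its markers: the summed level of 6 proximal tubule genes was 3250 to 3820 FPKM in sham, 746 to 913 in UUO7 and 1610 to 2280 in R4W. The 4 injured tubule markers summed to 79.3 to 140 FPKM in sham and 1590 to 2000 in UUO7, the 4 macrophage markers to 31.7 to 44.8 and 388 to 518, and the 4 fibroblast and pericyte markers to 12.5 to 33.3 and 175 to 210. These marker sums moved with the groups compared below, and their part in the results was not tested.

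Counts of called members are set beside the share of all genes that limma called in the same direction. In UUO2 against sham, 1 of the 8 genes with a row was higher, with 32.3% of all genes higher, and 1 was lower, with 17% of all genes lower. In UUO7 5 were higher and 1 lower, with 60.1% and 17.8% of all genes. In R1W 4 were higher and 2 lower (59.4% and 14.7% of all genes), in R2W there were 3 and 2 (56.1% and 12.9%), and in R4W 3 and 1 (54.8% and 11.6%). After rescaling, 1 was higher and 3 lower in UUO7, with 36.5% of all genes in each direction, and likewise 1 and 3 in R4W, with 28.9% and 31.1%. These counts of 8 genes do not stand apart from the shares of all genes, and Areg had to differ between groups to enter the table, as its values show.

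The upstream sequences of Areg and Egfr are shown because Areg was called higher and Egfr lower than in sham in UUO7 and R1W on both scalings. Each sequence is the 250 bases before the RefSeq start site in GRCm38.p6, read 5′ to 3′ on the plus strand, and capitals mark motif matches on either strand. Areg occupies chr5:91139599-91148432 and Egfr chr11:16752203-16918158, both on the plus strand as the deposited table places them, and the windows are chr5:91139349-91139598 and chr11:16751953-16752202.
Areg: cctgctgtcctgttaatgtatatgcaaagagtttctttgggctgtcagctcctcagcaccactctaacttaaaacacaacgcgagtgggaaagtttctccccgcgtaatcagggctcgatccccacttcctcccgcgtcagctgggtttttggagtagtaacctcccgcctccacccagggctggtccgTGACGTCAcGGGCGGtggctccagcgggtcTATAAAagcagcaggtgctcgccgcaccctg
Egfr: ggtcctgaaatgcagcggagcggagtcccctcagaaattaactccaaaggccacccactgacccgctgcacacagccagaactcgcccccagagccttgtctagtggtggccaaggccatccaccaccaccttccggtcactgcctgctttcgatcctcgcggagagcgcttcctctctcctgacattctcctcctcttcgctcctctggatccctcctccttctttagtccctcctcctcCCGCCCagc
The Areg window held the cyclic AMP response element TGACGTCA 61 bases before the start, the GC box GGGCGG 52 bases before it and TATAAA 31 bases before it, and these matches do not overlap. The Egfr window held 1 GC box 9 bases before the start, and neither TGACGTCA nor TATAAA. Among 32851 upstream windows of the same length, TGACGTCA was found in 1.55%, TATAAA in 12.4% and GGGCGG in 32.7%. These matches describe letters, and no binding was measured. Met lies at chr6:17463800-17573980 (plus strand), and chr6:86195223-86275719 (plus) holds Tgfa. The ERBB relatives of Egfr lie at chr11:98412470-98437716 (Erbb2, plus), chr10:128567523-128589652 (Erbb3, minus) and chr1:68032186-69108059 (Erbb4, minus).

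**Figure D1:**
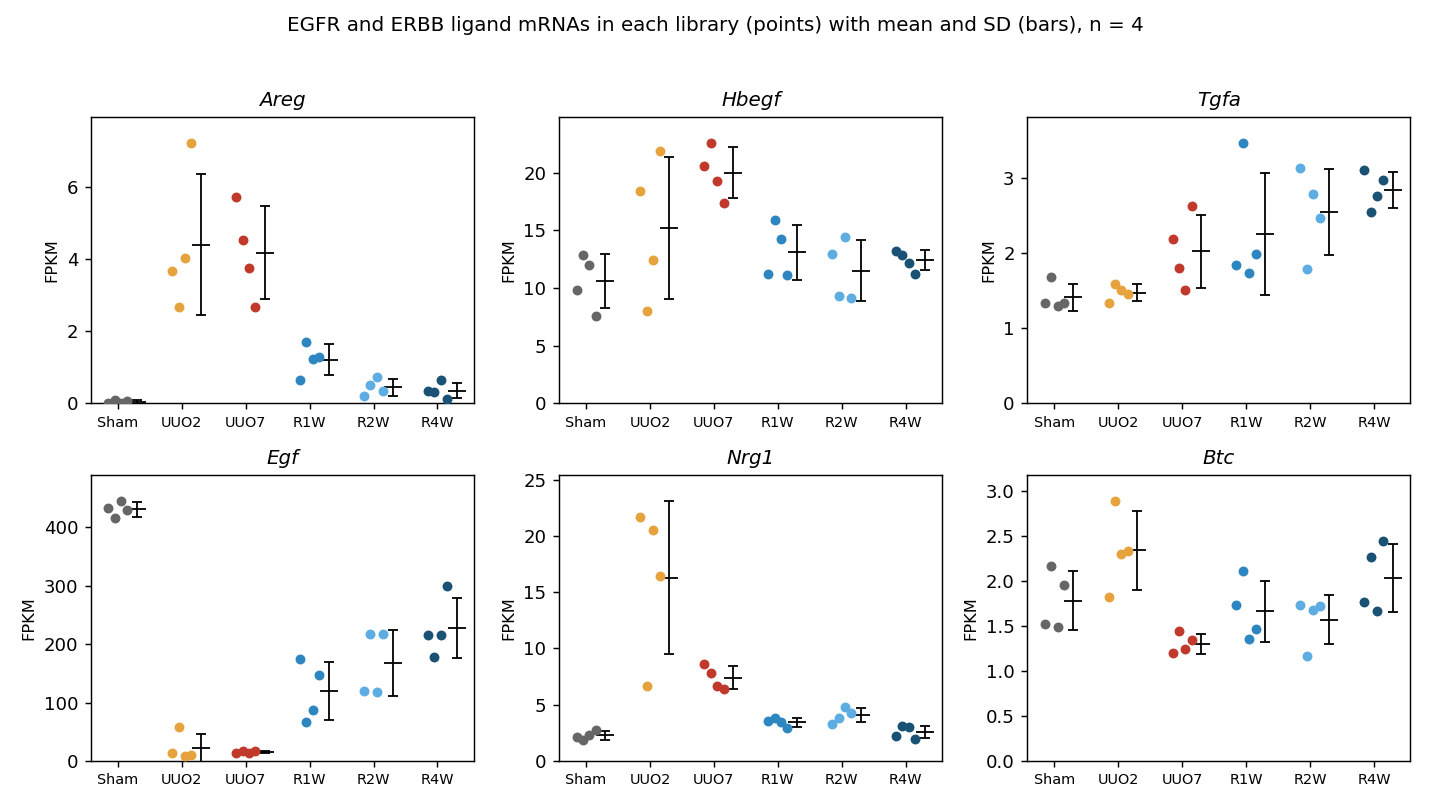
FPKM of 6 ligand genes (Areg, Hbegf, Tgfa, Egf, Nrg1, Btc) in each library by group, with each panel's axis starting at 0; points are single animals and the cross and bars are mean and SD of 4 (the bars of Areg in sham and Egf in UUO2 run below 0 and are not drawn there). Areg lies between 2.67 and 7.23 in all 8 obstructed kidneys and at 0.09 or less in sham, while Egf lies between 415.79 and 445.61 in sham and at 58.19 or less during obstruction.

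Among the ligands, Areg was near 0 in sham and rose in both obstructed groups. It encodes amphiregulin, a low-affinity EGFR ligand released by ADAM17. In sham its level was 0, 0.09, 0 and 0.06 FPKM, where a single fragment is worth 0.0268 to 0.0293 FPKM, so these libraries held only a few fragments of it. In UUO2 it was 3.69, 2.67, 4.04 and 7.23 FPKM, and in UUO7 5.73, 4.54, 3.76 and 2.67 FPKM. All 8 obstructed kidneys stood above all 4 sham kidneys, and the UUO2 and UUO7 libraries overlapped. On the log2 scale the rise was 2.32 (SE 0.21, limma adjusted p = 3e-08) in UUO2 and 2.28 (SE 0.21, limma adjusted p = 4.97e-09) in UUO7. After rescaling it was 2.45 and 2.13. In the authors' deposited table the same rises are 6.81 and 6.37. Across genes, its log2 values track ratios of means without an added 1 at slopes of 0.97 and 0.98, and any offset was not checked. In UUO7 against sham they lie nearer the rescaled than the deposited differences for Erbb2, Erbb3, Erbb4, Hbegf, Tgfa and Met. For Egfr the authors' value of -0.47 lies nearer the deposited difference. Since its sham mean is 0.0375 FPKM and the smallest mean of any gene in the table is 1, Areg entered the table only through its level in the operated kidneys.

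Areg fell again once the ureter was reimplanted. It was 0.64, 1.69, 1.22 and 1.29 FPKM in R1W. The later groups lay lower, R2W at 0.19, 0.5, 0.73 and 0.33 FPKM and R4W at 0.35, 0.31, 0.64 and 0.11 FPKM. Each recovering kidney was below the lowest obstructed kidney and above the highest sham kidney. The margin above sham was small for R4W replicate 4 and R2W replicate 1, at 3.88 and 4.95 implied fragments against 3.11 in sham replicate 2. R1W against UUO7 gave -1.22 on the log2 scale (SE 0.21, limma adjusted p = 0.00141), in a comparison where 1 member rose and 1 fell, with 6.47% and 8.04% of all genes. R4W against UUO7 gave -1.92 (limma adjusted p = 2e-06), where 1 member rose and 2 fell, with 17.6% and 30.8% of all genes. R4W against R1W gave -0.70 (limma adjusted p = 0.0269), where 0 members rose and 2 fell, with 5.06% and 14.1% of all genes, and this call was lost in 5 of the 8 fits that left out 1 library (limma adjusted p up to 0.0829, without R4W replicate 4). Against sham, Areg was still 1.07 higher in R1W (limma adjusted p = 0.000119). At 2 and 4 weeks the difference from sham was 0.46 and 0.37, with limma adjusted p of 0.0587 and 0.126, although the libraries did not overlap. Without R2W replicate 1 the R2W difference passed, at 0.54 (limma adjusted p = 0.0426). With a pseudocount of 0.1 in place of 1, which weighs low levels more, both passed, at 1.92 (limma adjusted p = 0.000275) and 1.64 (limma adjusted p = 0.00131). The authors' deposited table gives 3.22 for R2W and 2.92 for R4W, with adjusted p of 0.00129 and 0.00849.

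Hbegf, which encodes heparin-binding EGF-like growth factor, was present in every kidney. Its level was 9.79, 12.87, 12 and 7.6 FPKM in sham and 20.62, 22.56, 19.29 and 17.33 FPKM in UUO7. UUO7 lay wholly above sham, with a log2 fold change of 0.88 (SE 0.22, limma adjusted p = 0.000995) as deposited and 0.42 (limma adjusted p = 0.0688) after rescaling, which no longer passed. The authors' deposited table gives 0.42 with an adjusted p of 0.0142. In UUO2 it was 18.38, 8.04, 12.4 and 21.88 FPKM, so replicate 2 lay within the sham range and the 4 libraries were the most scattered of any group. The UUO2 difference of 0.42 (limma adjusted p = 0.115) did not pass, and without UUO2 replicate 2 it was 0.67 and passed (limma adjusted p = 0.00521). The R1W kidneys held 11.17, 15.92, 14.25 and 11.09 FPKM, the R2W kidneys 12.96, 9.27, 14.44 and 9.14 FPKM and the R4W kidneys 13.21, 12.82, 12.15 and 11.22 FPKM. All 3 recovery groups overlapped with sham. From UUO7 to R4W the fall passed on both scalings, at -0.65 (limma adjusted p = 0.0184) and -0.54 after rescaling (limma adjusted p = 0.0345), and the libraries did not overlap. From UUO7 to R1W the difference of -0.58 did not pass (limma adjusted p = 0.0746), but it passed in the fit on those groups alone (limma adjusted p = 0.021) and in the fit without UUO2 (limma adjusted p = 0.0179), and the authors' deposited table gives -0.59 with an adjusted p of 0.000193.

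Tgfa, the gene of transforming growth factor alpha, had its highest group mean in R4W. It was low in sham at 1.34, 1.68, 1.3 and 1.33 FPKM and similar in UUO2 at 1.33, 1.59, 1.51 and 1.45 FPKM. The level was 2.18, 1.8, 1.5 and 2.62 FPKM in UUO7 and 1.84, 3.46, 1.73 and 1.98 FPKM in R1W. It was 3.13, 1.79, 2.78 and 2.47 FPKM in R2W and 3.1, 2.55, 2.76 and 2.97 FPKM in R4W, where every library exceeded every sham library. Against sham the log2 difference was 0.54 in R2W (SE 0.14, limma adjusted p = 0.00194) and 0.67 in R4W (SE 0.14, limma adjusted p = 0.000333). Both held after rescaling, at 0.29 (limma adjusted p = 0.0372) and 0.44 (limma adjusted p = 0.00356). R4W was also above UUO7, by 0.36 as deposited (limma adjusted p = 0.0415) and 0.42 after rescaling (limma adjusted p = 0.00658), although their libraries overlapped and 6 of the 8 fits that left out 1 library lost the call as deposited (limma adjusted p up to 0.149, without UUO7 replicate 3). Earlier differences were weaker: UUO7 against sham gave 0.32 (limma adjusted p = 0.047), 0.01 after rescaling, and 0.22 (limma adjusted p = 0.171) without UUO7 replicate 4. R1W against sham gave 0.40 (limma adjusted p = 0.0139), 0.12 after rescaling, and 0.24 (limma adjusted p = 0.083) without R1W replicate 2.

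The 4 urothelium markers (Upk1a, Upk1b, Upk3a and Krt5) are given beside Tgfa. Their summed level was 1.42, 29.9, 1.94 and 2.11 FPKM in sham, 0.41 to 2.98 in UUO2, 15.4 to 28.5 in UUO7, 10.2 to 47.5 in R1W, 19.8 to 68.1 in R2W and 37.4 to 120 in R4W. The library with the highest Tgfa was also the one with the highest urothelium sum in sham (replicate 2), UUO7 (replicate 4), R1W (replicate 2), R2W (replicate 1) and R4W (replicate 1). In UUO2 they differed, with Tgfa highest in replicate 2, whose urothelium sum was 2.73 FPKM, and the sum highest in replicate 4 at 2.98 FPKM. The part of urothelium in the Tgfa result was not tested.

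Egf, Btc, Nrg1 and Nrg4 were the other ligand genes of the ERBB receptors with a row. Egf encodes epidermal growth factor, which the distal nephron makes in large amounts. It was 433.37, 415.79, 445.61 and 429.04 FPKM in sham and 13.47, 16.1, 14.11 and 17.33 FPKM in UUO7, a log2 fold change of -4.74 (SE 0.40, limma adjusted p = 1.47e-09). In UUO2 it was 12.81, 58.19, 9.14 and 10.36 FPKM, with replicate 2 far above the other 3 libraries. It rose from UUO7 to 173.91, 67.28, 87.51 and 146.28 FPKM in R1W (2.79, limma adjusted p = 0.000328), and in R4W, at 215.58, 177.12, 216.33 and 298.87 FPKM, every library remained below sham (-0.95, limma adjusted p = 0.0409). The 2 distal convoluted tubule markers summed to 404 to 489 FPKM in sham, 129 to 181 in UUO7 and 358 to 518 in R4W. Most of that sum was Slc12a3. Pvalb, the other marker, was 32.28 to 37.27 FPKM in sham, 0 to 0.04 in UUO7 and 19.58 to 22.77 in R4W. In R4W Pvalb was thus still wholly below sham. The part of these markers in the Egf result was not tested.

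Nrg1, the gene of neuregulin 1, a ligand of ERBB3 and ERBB4, peaked early. It was 1.89 to 2.75 FPKM in sham and 21.7, 6.65, 20.5 and 16.4 FPKM in UUO2, a log2 rise of 2.30 (SE 0.23, limma adjusted p = 8.67e-08). It was 6.43 to 8.62 FPKM in UUO7 (1.36, limma adjusted p = 1.31e-05). In R1W, at 2.9 to 3.85 FPKM, and in R2W, at 3.32 to 4.78 FPKM, it was lower than in UUO7 but every library still exceeded every sham library. The R1W difference from sham did not pass (0.45, limma adjusted p = 0.0803), and that of R2W passed as deposited (0.63, limma adjusted p = 0.0179) but not after rescaling (0.34, limma adjusted p = 0.196). In R4W, at 1.97 to 3.06 FPKM, it overlapped with sham (0.12, limma adjusted p = 0.656). Btc, the gene of betacellulin, fell in UUO7 from 1.78 ± 0.329 to 1.3 ± 0.108 FPKM (SD, n = 4; -0.26, limma adjusted p = 0.0481; -0.56 after rescaling), and after rescaling it was also lower in R1W (-0.35) and R2W (-0.37). Nrg4, the gene of neuregulin 4, was 1.89 to 2.74 FPKM in sham and 1.25 to 1.67 FPKM in UUO7, without overlap. It passed no test against sham as deposited (-0.42 in UUO7, limma adjusted p = 0.0893). After rescaling it was called lower in UUO7 (-0.75, limma adjusted p = 0.00545), R1W (-0.68, limma adjusted p = 0.0114) and R2W (-0.59, limma adjusted p = 0.0279), and the authors' deposited table also lists it lower there, at -0.96, -0.87 and -0.73. In R4W replicate 1 Nrg4 reached 6.74 FPKM against 1.58 to 2.89 in the other 3, and that library also held the highest sum of 4 adipose markers, 1560 FPKM, a relation that was not tested. Mst1r, which encodes the MET relative RON, was at 0.42 to 1.78 FPKM throughout and passed no limma test against sham on either scaling, while the authors' deposited table lists it lower in UUO2, at -0.69 with an adjusted p of 0.00191.

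Because a share of a sum within 1 library is independent of library scaling, the makeup of the ligand pool was also described. Egf, Hbegf, Areg, Tgfa and Btc, the EGFR ligand genes with a row, summed to 445 ± 11.8 FPKM in sham, 46 ± 19.1 in UUO2, 42.7 ± 2.83 in UUO7 and 245 ± 50.8 in R4W (SD, n = 4). Egf made up 96.9% ± 0.598 of that sum in sham and 35.8% ± 4.51 in UUO7, while Hbegf went from 2.38% ± 0.537 to 46.7% ± 3.14 and Areg from 0.00861% ± 0.0104 to 9.73% ± 2.78. None of these shares overlapped between sham and UUO7. As parts of 1 sum, the other shares had to rise together when that of Egf fell. Hbegf itself went from a mean of 10.6 to 20 FPKM. In R4W Egf was back at 92.6% ± 1.62, with a highest library of 94.7% against a lowest sham library of 96.1%. UUO2 replicate 2 differed from its group, with an Egf share of 79.3% against 24% to 33.7% in the other 3. These shares are of mRNA and do not measure ligand protein.

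**Figure D2:**
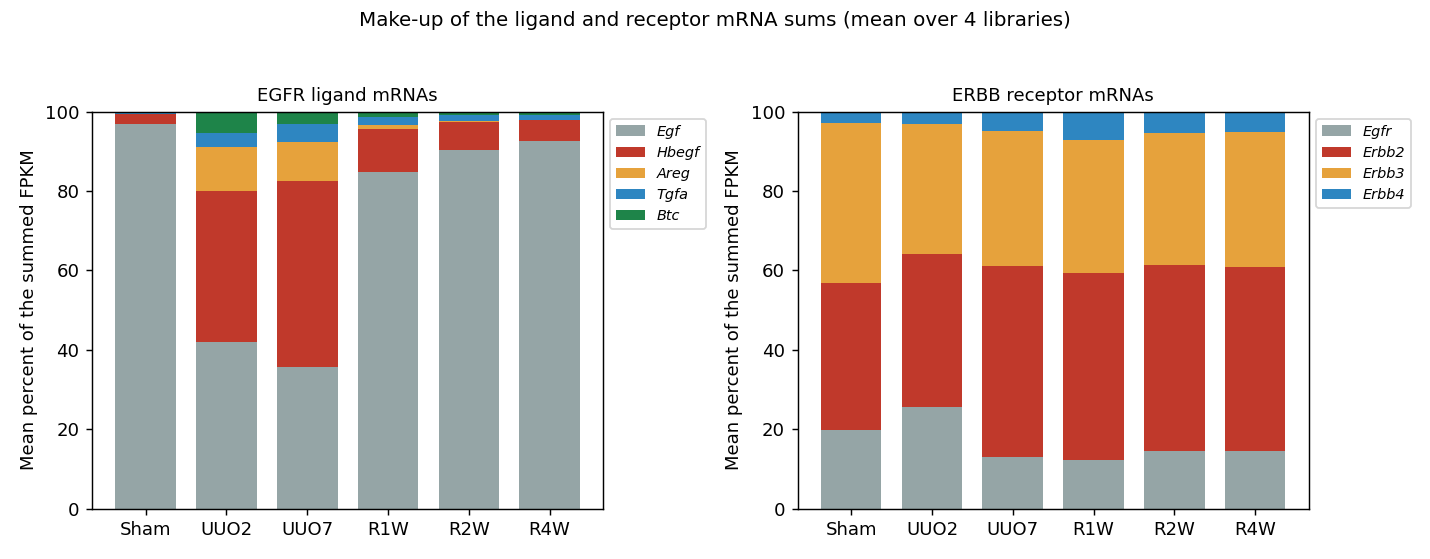
Stacked bars of the mean percent (4 libraries per group) that each gene contributes to the summed FPKM of 5 EGFR ligand genes (left) and of 4 ERBB receptor genes (right). Egf falls from 96.9% of the ligand sum in sham to 35.8% in UUO7 as Hbegf grows to 46.7%, and Egfr falls from 19.7% of the receptor sum in sham to 13.1% in UUO7. The shares of the other ligands had to rise together as that of Egf fell.

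Of the receptors, Egfr was lower from day 7 on. Its level was 8.13, 9.51, 8.99 and 6.92 FPKM in sham and 11.17, 8.83, 11.85 and 8.54 FPKM in UUO2. By day 7 it was 6, 6.02, 4.63 and 6.69 FPKM. Every UUO7 library was below every sham and every UUO2 library. UUO7 against sham gave -0.46 (SE 0.14, limma adjusted p = 0.00423), and -0.89 after rescaling (limma adjusted p = 2.62e-06). UUO7 against UUO2 gave -0.70 (limma adjusted p = 0.000138), in a comparison where 2 members rose and 1 fell, with 52% and 14.7% of all genes. The UUO2 difference from sham was 0.24 (limma adjusted p = 0.156) and did not pass, while the authors' deposited table gives 0.54 with an adjusted p of 0.00748.

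Egfr remained below sham after the ureter was reimplanted. The R1W kidneys held 5.02, 6.24, 4.25 and 4.45 FPKM, the R2W kidneys 5.44, 4.79, 6.58 and 7.24 FPKM and the R4W kidneys 6.64, 5.08, 6.31 and 6.54 FPKM. All R1W and R4W libraries lay below the sham range, and 1 R2W library lay within it. The differences from sham were -0.65 (limma adjusted p = 0.000218), -0.43 (limma adjusted p = 0.00861) and -0.39 (limma adjusted p = 0.0153), and after rescaling -1.05, -0.78 and -0.73. The R4W call was lost without R4W replicate 2, the library of conflicting labels, at -0.32 (limma adjusted p = 0.0619) as deposited. Against UUO7, R1W gave -0.19 (limma adjusted p = 0.357) and R4W gave 0.07 (SE 0.14, limma adjusted p = 0.708), and neither passed. As a share of the 4 ERBB receptor mRNAs, Egfr was 15.2% to 21.9% in sham, 22.7% to 28.9% in UUO2, 11.7% to 14.2% in UUO7 and 13% to 15.6% in R4W. The UUO2 shares were thus wholly above sham and the UUO7 shares wholly below it.

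**Figure D3:**
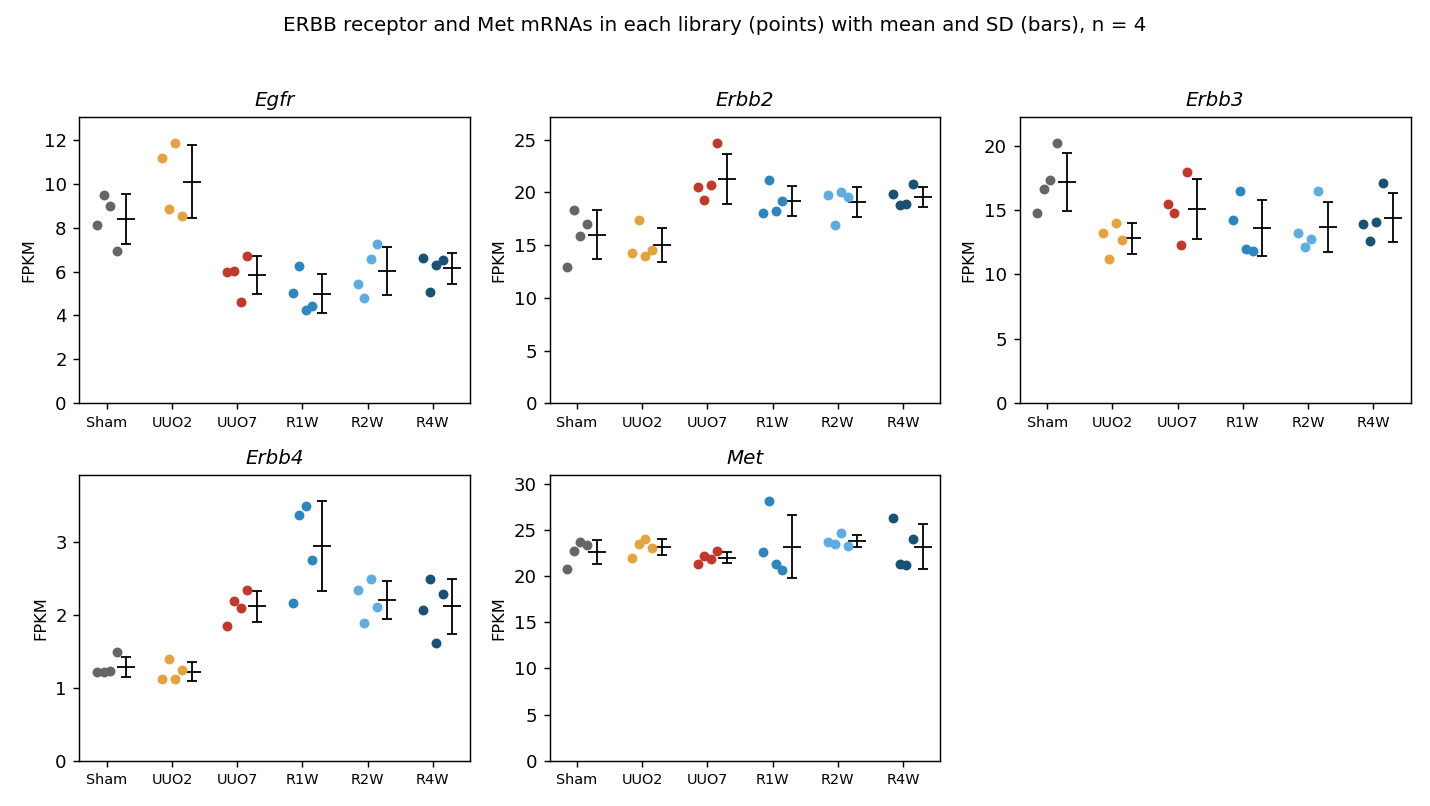
FPKM of Egfr, Erbb2, Erbb3, Erbb4 and Met in each library by group, as deposited and with each panel's axis starting at 0; points are single animals and the cross and bars are mean and SD of 4. Egfr lies at 6.92 or more in sham and at 6.69 or less in UUO7. Erbb4 peaks in R1W at up to 3.5, and Met stays between 20.64 and 28.15 as deposited. Erbb2 in UUO7, above sham here, differs from it by -0.07 on the log2 scale after rescaling. Met in UUO7 differs from sham by -0.5 after rescaling.

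Erbb4, a neuregulin receptor, was the scarcest of the 4 and rose after day 2. It was 1.22, 1.22, 1.23 and 1.5 FPKM in sham and 1.13, 1.4, 1.12 and 1.24 FPKM in UUO2. It was 1.85, 2.2, 2.1 and 2.35 FPKM in UUO7 and 2.16, 3.38, 3.5 and 2.76 FPKM in R1W, and these libraries all lay above sham. It was 2.34, 1.89, 2.49 and 2.11 FPKM in R2W and 2.07, 2.49, 1.62 and 2.29 FPKM in R4W, which were also wholly above sham. The difference from sham was greatest in R1W, at 0.77 (SE 0.11, limma adjusted p = 2e-06) and 0.49 after rescaling (limma adjusted p = 0.000147). In R2W it was 0.48 (limma adjusted p = 0.000496) and 0.24 after rescaling (limma adjusted p = 0.0325). In UUO7 and R4W it passed as deposited, at 0.45 (limma adjusted p = 0.000747) and 0.44 (limma adjusted p = 0.00136), but not after rescaling, at 0.14 and 0.21. UUO7 against UUO2 gave 0.49 (limma adjusted p = 0.000437) and 0.27 after rescaling (limma adjusted p = 0.0175). From R1W to R4W it fell by 0.34 (limma adjusted p = 0.035), and after rescaling the difference was -0.28 (limma adjusted p = 0.051), and 5 of 8 fits that left out 1 library lost the call (limma adjusted p up to 0.151, without R1W replicate 3). R1W exceeded UUO7 by 0.33 (limma adjusted p = 0.0454), with overlapping libraries, and that call was lost in 7 of the 8 fits that left out 1 library. Its share of the receptor mRNAs was 3.02% ± 0.316 in sham and 7.27% ± 1.54 in R1W (SD, n = 4), with no overlap.

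Erbb3, whose product signals through phosphoinositide 3-kinase, was lower than in sham in 3 of the 5 operated groups as deposited. It was 14.8, 16.62, 17.33 and 20.2 FPKM in sham and 13.23, 11.17, 14 and 12.7 FPKM in UUO2, with no overlap, and the difference of -0.40 (SE 0.13, limma adjusted p = 0.0115) held after rescaling at -0.53 (limma adjusted p = 0.0012). In UUO7, at 15.49, 14.78, 12.28 and 18 FPKM, it overlapped with sham (-0.18, limma adjusted p = 0.194). R1W and R2W lay at 11.83 to 16.48 and 12.13 to 16.5 FPKM, and both differed from sham by -0.32, with limma adjusted p of 0.0257 and 0.0302 and libraries that overlapped. Without sham replicate 4 both calls were lost, at -0.25 (limma adjusted p = 0.0998) and -0.24 (limma adjusted p = 0.113), as they were without several other single libraries. R4W, at 12.61 to 17.09 FPKM, gave -0.24 (limma adjusted p = 0.0928), and -0.32 (limma adjusted p = 0.0359) without R4W replicate 4. After rescaling Erbb3 was called lower in all 5 groups, at -0.64 in UUO7 and at -0.75, -0.69 and -0.60 after 1, 2 and 4 weeks of recovery. Erbb3 and its ligand gene Nrg1 thus moved in opposite directions in UUO2.

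Erbb2, the gene of the ligandless partner receptor, was 16 ± 2.3 FPKM in sham, 15 ± 1.6 in UUO2, 21.3 ± 2.35 in UUO7, 19.2 ± 1.46 in R1W, 19.1 ± 1.44 in R2W and 19.6 ± 0.942 in R4W (SD, n = 4). UUO7, at 20.49, 19.27, 20.7 and 24.68 FPKM, was wholly above sham, at 12.95, 18.36, 15.83 and 17.02 FPKM. As deposited the difference was 0.39 (SE 0.09, limma adjusted p = 0.000806), close to the all-gene median of 0.42, and after rescaling it changed sign to -0.07 (limma adjusted p = 0.45). The same held in R1W, R2W and R4W, where 0.25, 0.24 and 0.28 as deposited became -0.17, -0.13 and -0.07, none of them called. In UUO2 the difference was -0.08 (limma adjusted p = 0.499) as deposited and -0.21 (limma adjusted p = 0.0362) after rescaling. Without sham replicate 1, the deposited calls in R1W, R2W and R4W were also lost, at 0.16, 0.15 and 0.19. The R1W call was also lost without R1W replicate 2, and the R2W call without R2W replicate 1, 3 or 4 or sham replicate 3. In the fit on the groups compared both were lost (limma adjusted p = 0.0664 and 0.0714). In the authors' deposited table, Erbb2 in UUO7 stands at -0.06 with an adjusted p of 0.577. As a share of the receptor mRNAs, Erbb2 went from 34.9% to 40.2% in sham to 45.6% to 52.1% in UUO7, without overlap. As deposited, the sum of the 4 receptor mRNAs stayed within 39.1 to 44.4 FPKM in group means. It was not computed after rescaling, which divided sham by 0.809 and UUO7 by 1.13 on average and so lowers UUO7 against sham.

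Met, the gene of the hepatocyte growth factor receptor, had a higher mean than any ERBB receptor in each of the 6 groups and passed no test as deposited. Its level was 20.8, 22.72, 23.65 and 23.34 FPKM in sham, 21.33, 22.18, 21.88 and 22.77 in UUO7, and 26.27, 21.33, 21.23 and 23.99 in R4W. The group means ran from 22 to 23.8 FPKM, all neighbouring groups overlapped, and limma called Met in none of the 9 comparisons, with 0 of 9 unadjusted p under 0.05. UUO7 against sham gave -0.04 (SE 0.08, limma adjusted p = 0.692). After rescaling Met was called lower in UUO7 at -0.50 (SE 0.07, limma adjusted p = 3.74e-06), and by -0.41, -0.31 and -0.33 after 1, 2 and 4 weeks of recovery. The authors' deposited table also lists it lower in UUO7, at -0.44 with an adjusted p of 4.19e-12.

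**Figure D4:**
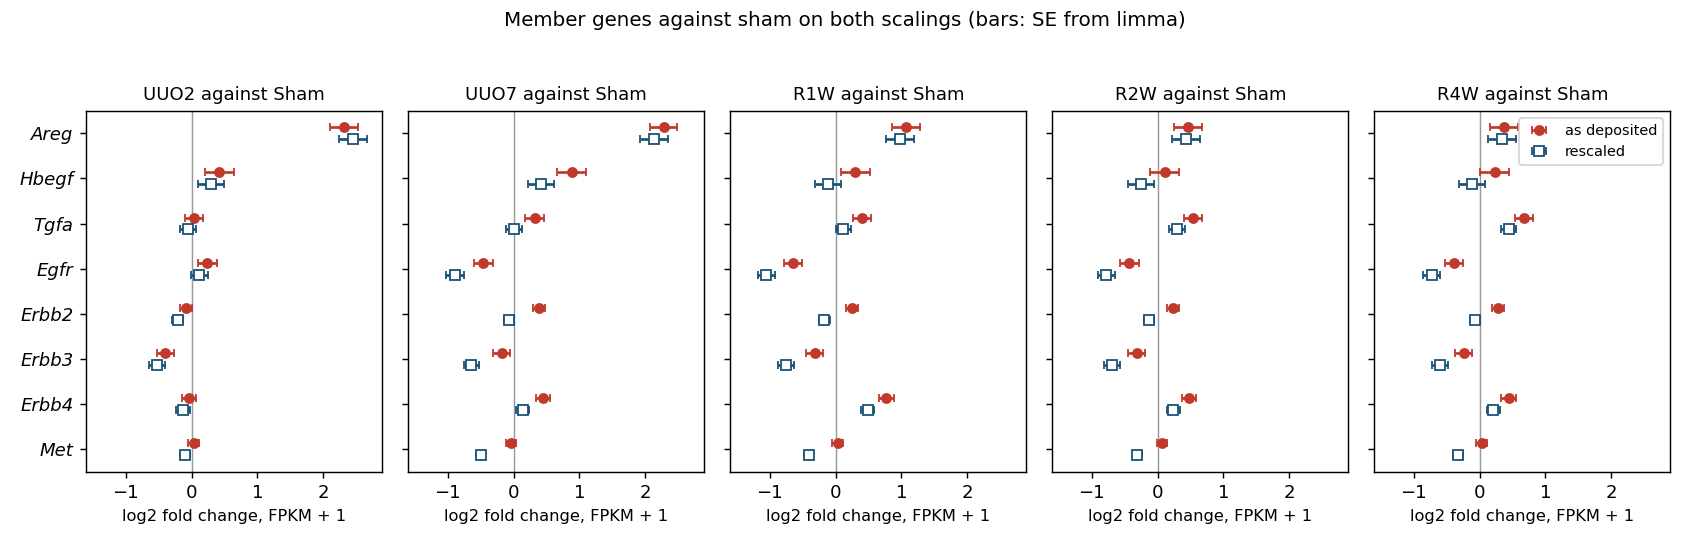
Log2 fold change of FPKM + 1 against sham (x axis) of the 8 members in each of the 5 operated groups, as deposited (red circles) and after rescaling (open blue squares); bars are the limma SE. Rescaling divided every operated library by a larger factor than any sham library, so the falls of Egfr from UUO7 on could not turn. The rises of Areg in UUO2, UUO7 and R1W exceed the all-gene shift, so they could not turn either. Erbb2 in UUO7 moves from 0.39 to -0.07 and Met from -0.04 to -0.50.

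Ordered by group mean, Areg ran UUO2, UUO7, R1W, R2W, R4W, Sham from high to low, and only the neighbours UUO7 and R1W and the neighbours R4W and Sham did not overlap. Egfr ran UUO2, Sham, R4W, R2W, UUO7, R1W, and only Sham and R4W did not overlap. Erbb4 ran R1W, R2W, UUO7, R4W, Sham, UUO2, and only R4W and Sham did not overlap. For Hbegf, Tgfa, Erbb2, Erbb3 and Met every pair of neighbouring groups overlapped. In sham, the mean levels per transcript length ran from Met at 22.6 FPKM through Erbb3 at 17.2, Erbb2 at 16, Hbegf at 10.6, Egfr at 8.39, Tgfa at 1.41 and Erbb4 at 1.29 to Areg at 0.0375, and Met exceeded Erbb3 in each of the 4 libraries.

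The genes most like each member over the 24 libraries were sought by Pearson's r of log2(FPKM + 1), as a description only, since the libraries share their group structure. For Areg they were Acat3 (r = 0.95) and Ctsl (0.946), and for Tgfa Parm1 (0.959) and Dag1 (0.941). For Erbb4 they were Zfp160 (0.95) and Zfp354c (0.946), for Egfr Tgoln1 (0.916) and Tango6 (0.904), and for Erbb2 Pkm (0.909) and B3galt4 (0.908). For Hbegf they were Cdc42se1 (0.863) and Creb3 (0.853). Erbb3 had no gene above Etv5 (0.74) and Cdcp1 (0.734), and Met none above Noct (0.703) and Mcoln3 (0.694).

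The genes that release or activate the ligands came from a list of 13, of which 11 had a row. Members of this and the following lists are named for the greatest change in UUO7 against sham, without overlap. In UUO7 against sham 9 rose and 2 fell, with 60.1% of all genes higher and 17.8% lower, and the median log2 fold change was 0.95 against 0.42 for all genes. After rescaling 8 rose and 2 fell, with 36.5% of all genes in each direction. Rhbdf2, whose product iRhom2 carries ADAM17 to the cell surface, was 3.39 to 4 FPKM in sham and 14.11 to 15.77 in UUO7 (1.76, SE 0.18, limma adjusted p = 2.61e-08; 1.34 after rescaling). Plat, the gene of tissue plasminogen activator, rose from 13.8 ± 9.6 to 65 ± 8.33 FPKM (SD, n = 4; 2.33, limma adjusted p = 8.68e-08), with sham replicate 2 at 28.18 FPKM. Spint2, which encodes an inhibitor of hepatocyte growth factor activation, rose from 244 ± 38.3 to 739 ± 117 FPKM (1.60, limma adjusted p = 2.2e-09). Genes of proteases that activate hepatocyte growth factor moved in both directions. St14, the gene of matriptase, named after its values were seen, rose from 22.51 to 37.07 FPKM in sham to 53.34 to 66.76 FPKM in UUO7 (1.08, limma adjusted p = 2.31e-07; 0.61 after rescaling). The 2 genes of the list that fell also encode such proteases. Hpn, the gene of hepsin, went from 308 ± 13.8 to 209 ± 19.4 FPKM (-0.56, limma adjusted p = 0.000368) and Hgfac from 10.7 ± 0.626 to 7.18 ± 1.63 FPKM (-0.53, limma adjusted p = 0.00121). Hgfac was lower still in UUO2, at 3.41 to 6.53 FPKM (-1.06, limma adjusted p = 2.4e-06), and rose from UUO2 to UUO7 as deposited (0.52, limma adjusted p = 0.00201) but not after rescaling (0.22, limma adjusted p = 0.176). In R4W Hgfac was at 9.3 to 11.08 FPKM, not called as deposited (-0.02, limma adjusted p = 0.896) and lower after rescaling (-0.37, limma adjusted p = 0.0297), while Hpn stayed low at 216 ± 16.5 FPKM (-0.51, limma adjusted p = 0.00127).

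Of 18 feedback inhibitors and ERK-induced genes, all with a row, 14 rose and 3 fell in UUO7 against sham, with a median of 0.70, where 60.1% of all genes were higher and 17.8% lower. After rescaling 10 rose and 4 fell, with 36.5% of all genes in each direction. Spry1, which encodes a sprouty inhibitor of receptor signalling, went from 4.51 to 6.92 FPKM in sham to 22.16 to 24.96 in UUO7 (1.98, limma adjusted p = 2.53e-08). Phlda1 (1.49, limma adjusted p = 5.14e-08) and Dusp5, the gene of an ERK phosphatase (1.47, limma adjusted p = 8.14e-07), rose as well. Errfi1, which encodes the EGFR inhibitor MIG6, fell from 121 ± 11 to 63.9 ± 9.94 FPKM (SD, n = 4; -0.92, limma adjusted p = 8.14e-07; -1.41 after rescaling). Etv5, the gene of a transcription factor induced by ERK, fell from 5 ± 0.174 to 3.46 ± 0.479 FPKM (-0.43, limma adjusted p = 0.00278). In UUO2 Etv5 was already lower (-0.70, limma adjusted p = 7.39e-05), whereas Errfi1 was not called (-0.25, limma adjusted p = 0.0959). The inhibitors of this list thus changed in both directions.

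Among 23 adaptors and kinases, all with a row, 16 rose and 1 fell in UUO7 against sham, with a median of 0.52, where 60.1% of all genes were higher and 17.8% lower. After rescaling 10 rose and 8 fell with a median of 0.06 and 36.5% of all genes in each direction, so the excess of rises depended on the scaling. Stat3, the gene of a transcription factor that EGFR can activate, rose from 17.3 ± 2.28 to 54.1 ± 2.61 FPKM (SD, n = 4; 1.60, limma adjusted p = 5.98e-09; 1.13 after rescaling). Akt1, the gene of a survival kinase, rose from 30.5 to 73.1 FPKM in group means (1.24, limma adjusted p = 4.47e-09), and Nras, the gene of a RAS protein, from 8.81 to 21.7 FPKM (1.22, limma adjusted p = 2.66e-07). In R4W against sham Stat3 stood at 1.23 and Akt1 at 0.85, both called on both scalings, while Nras stood at 0.58 (limma adjusted p = 0.00204) and at 0.24 after rescaling (limma adjusted p = 0.132).

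**Figure D5:**
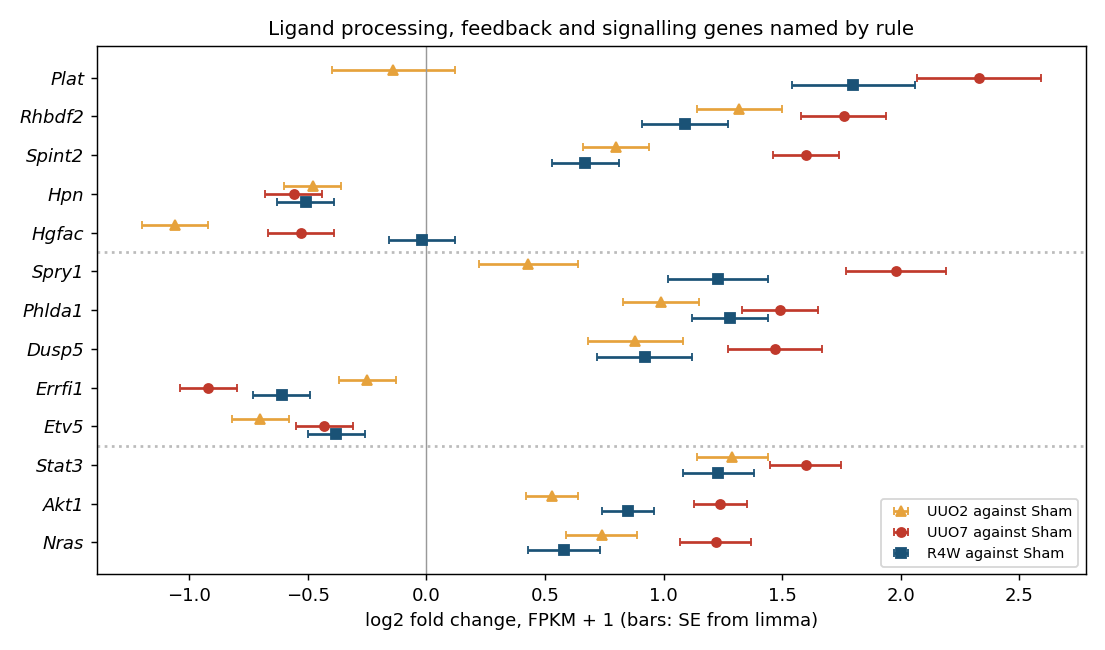
Log2 fold change of FPKM + 1 against sham (x axis) of 13 genes named for their change in UUO7, in UUO2 (triangles), UUO7 (circles) and R4W (squares), as deposited; bars are the limma SE and dotted lines separate ligand release and activation, feedback, and adaptors and kinases. The genes were chosen for their UUO7 values, which run from -0.92 for Errfi1 to 2.33 for Plat, so their order of groups is a description only.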

How the data were processed

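Kidney RNA of 24 mice was sequenced in 6 groups of 4, with group and number read from each title. The deposited table gives 1 value per gene and library for 14785 genes, with no unit named per the file headers. FPKM was inferred from the deposited values, since the column sums vary from 717415 to 830179 (a ratio of 1.16) and the sums weighted by transcript length less (1.08). The submitters' processing notes name FastQC, RSEM, Bowtie2, DESeq2 and the build mm10, with no order or role. The same deposited table gives log2 fold changes and adjusted p-values of the authors' own comparisons. Their direction was inferred from their slope of 0.92 to 1 against the sample columns. Genes with a mean under 1 over the 24 libraries are not analysed here.

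The test was limma (version 3.58.1, R 4.3.3) with a mean-variance trend, fitted to log2(FPKM + 1) of all 24 libraries at once, with 9 contrasts and Benjamini-Hochberg adjustment over all 14785 genes. FPKM values are not counts, so no count model was run. The authors' values carry no depth, and depth was implied from whole-read steps of single-transcript genes, taking the effective length as the length minus 150, with Python 3.11.15 and numpy 2.4.6. The gene test and the step scan were tested on simulated data. SD is between animals and SE comes from limma.

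All 9 members, and every gene with a row among 10 other ligands and related receptors, are named. From the other lists up to 3 rises and 3 falls of greatest change in UUO7 against sham are named, among called genes without overlap, and for each member the 2 genes of highest Pearson r. The members, lists and marker genes were chosen with earlier results of these data known. Upstream windows come from RefSeq (GRCm38.p6). Replicate numbers recur across groups, but in no comparison did all 4 same-numbered pairs deviate together with a correlation over 0.1 (at most 2 did, in R1W against UUO7; single pairs ran from -0.331 to 0.451 and means from -0.174 to 0.148), so the samples were not treated as pairs. Alternatives were rescaling, a pseudocount of 0.1 or 10, only genes averaging at least 5 FPKM, separate fits of each pair of groups, a replicate block, a minimum log2 change of 1, R4W replicate 2 placed in R2W, leaving out each replicate, and, added after seeing the data, a fit without UUO2.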

Additional observations from a re-analysis of the deposited data

Results flagged for a closer look

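In 78 checks of 13 ligand and receptor genes over 6 groups of 4, 7 values, from 5 libraries, lay further from the other 3 of their group than a Dixon test at 95% allows, where chance flags about 1 in 20 groups. Erbb2 was 17.42 FPKM in UUO2 replicate 2 against 13.99 to 14.51 in the other 3, and 16.93 FPKM in R2W replicate 2 against 19.58 to 20.05. Erbb4 was 1.5 FPKM in sham replicate 4 against 1.22 to 1.23. Tgfa was 1.68 FPKM in sham replicate 2 against 1.3 to 1.34, and 3.46 FPKM in R1W replicate 2 against 1.73 to 1.98. Egf was 58.19 FPKM in UUO2 replicate 2 against 9.14 to 12.81, and Btc was 1.16 FPKM in R2W replicate 2 against 1.68 to 1.73.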

How the results depend on the processing

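The rescaling takes out the median shift of all genes, so differences smaller than that shift can change sign by construction. It turned Tgfa (-0.05) and Met (-0.10) in UUO2 against sham, Erbb2 in UUO7 (-0.07), R1W (-0.17), R2W (-0.13) and R4W (-0.07), Met in R1W (-0.41), R2W (-0.31) and R4W (-0.33), and Hbegf in R1W (-0.12), R2W (-0.25) and R4W (-0.12). It also turned Erbb3 in UUO7 against UUO2 (-0.11), Erbb3 (0.04) and Erbb4 (0.06) in R4W against UUO7, and Hbegf in R4W against R1W (0). A minimum log2 change of 1 left 1 called member in UUO2, UUO7 and R1W against sham, in R1W against UUO7 and in R4W against UUO7, and 0 in the other 4 comparisons. R1W against UUO7 had 1 called member with a pseudocount of 0.1. R4W against R1W had 1 after rescaling or with a pseudocount of 10, and 0 in the fit on those groups alone. The cause of the other changes was not tested, except that a minimum change calls fewer genes by construction. Shares of all genes called were not computed for these counts or for those below, so the counts cannot be set beside them.

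Leaving out 1 library at a time gave 2 to 3 called members in UUO2 against sham, 5 to 6 in UUO7, 4 to 6 in R1W, 3 to 5 in R2W and 3 to 5 in R4W. It gave 3 to 5 in UUO7 against UUO2, 1 to 2 in R1W against UUO7, 2 to 3 in R4W against UUO7 and 0 to 2 in R4W against R1W. Small differences changed sign in some of these fits. Met ranged from -0.01 to 0.05 in UUO2 against sham, -0.07 to 0.08 in R1W, -0.03 to 0.07 in R4W, -0.03 to 0.11 in R1W against UUO7 and -0.05 to 0.10 in R4W against R1W. Hbegf ranged from -0.03 to 0.20 in R2W against sham and -0.14 to 0.03 in R4W against R1W, Areg from -0.20 to 0.19 in UUO7 against UUO2, and Tgfa from -0.07 to 0.18 in R1W against UUO7. In R4W against UUO7 Erbb4 ranged from -0.07 to 0.07, Egfr from -0.02 to 0.14 and Erbb3 from -0.15 to 0.02, and Erbb3 ranged from 0 to 0.17 in R4W against R1W. The Tgfa rise in UUO7 was lost without UUO7 replicate 1 or 4 or sham replicate 1, 3 or 4 (limma adjusted p of 0.0863 to 0.171).

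With the replicate block, R1W against UUO7 had 1 called member in place of 2, and the other 8 counts stayed within 1.5 times. The animals share only a number across groups. With the block Tgfa in UUO7 against sham (limma adjusted p = 0.0611), Tgfa in R4W against UUO7 (0.0564) and Erbb4 in R1W against UUO7 (0.0542) no longer passed. The filter at a mean of 5 FPKM removed Areg, Tgfa and Erbb4. At the depth implied for each sham library, 32100000 to 35000000 fragments, sham Areg rests on 3.11 fragments or fewer.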
